A study of Mus musculus with 4 samples.

Results

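The genes described here encode the subunits of voltage-gated sodium and calcium channels in the mouse. They were taken by symbol from the RefSeq annotation of mm10: every protein-coding gene whose symbol starts with Cacna, Cacnb or Cacng, or reads Scn, a number and a or b. This gave 40 genes of 21887 protein-coding genes. Open chromatin at these genes was compared between oligodendrocytes (OL) and oligodendrocyte progenitor cells (OPC) with Omni-ATAC-seq, an assay that uses the Tn5 transposase to cut and tag accessible DNA in nuclei. Each cell type was made from both epiblast stem cell lines of the study, 129O1 and EpiSC5, so there were 4 libraries, 1 per cell type and line. The lines come from the strains 129SvEv and 129S1/SvImJ, per the labels, and which line came from which strain is not settled here.

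The OL libraries were made from cells sorted for the surface antigen O1, which appears on immature and later oligodendrocytes. The OPC libraries were made from progenitors that had been grown with 20 ng/mL bFGF and 20 ng/mL PDGFA, sorted after 4 passages with antibodies to CD140a and NG2, and then expanded and frozen. Sonic hedgehog was left out of OPC maintenance and differentiation, and the labels state 50000 cells. The medium in which OLs formed is not given in the sources used here, nor whether the libraries came from separate differentiations. P-values therefore speak only of the spread among these 4 libraries. That spread includes the difference between the lines, for which the main fit has no term, and may otherwise be technical. They are cultured cells of 1 line each, and line and replicate are the same thing in this design.

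Voltage-gated sodium channels have a large pore-forming alpha subunit (Nav) with small beta subunits that alter gating and adhere to other cells. Voltage-gated calcium channels have an alpha1 pore of the L type (Cav1), the P/Q, N and R types (Cav2) or the low-voltage T type (Cav3), with alpha2delta and cytoplasmic beta subunits that control how much channel reaches the membrane. The gamma genes encode proteins of which several are better known as auxiliary subunits of AMPA glutamate receptors. OPCs are known as electrically excitable glia: they carry sodium and calcium currents and receive synapses, and sodium currents are largely lost as they become oligodendrocytes.

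The data are lists of peaks, which are stretches where reads piled up over background, and hold no read counts. For each gene the covered sequence is the number of bases under peaks within the gene and 2 kb on each side, scaled so that all lists have the same total, and given in kb. Peak numbers are unscaled unless stated. Depth is unknown, and a gene with no peak is one where none passed the caller's threshold, not a gene shown to be closed. The 4 lists held 127196 and 152595 peaks in OL (129O1 and EpiSC5) and 129534 and 125002 in OPC, with 35.0 and 41.2 Mb covered in OL and 38.6 and 44.1 Mb in OPC. Where a cell type has a pair of values, that of the 129O1 library stands before that of the EpiSC5 library.

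Chromatin at the channel genes was, on balance, less covered by peaks in OL than in OPC. Of the 40 genes, 32 had a mean of at least 500 covered bp and were tested, and 8 were not: Scn7a, Scn10a, Scn11a, Scn2b, Cacna1f, Cacng1, Cacng6 and Cacng8. Every gene tested had a mean of at least 500 bp in OL and in OPC. By limma with Benjamini-Hochberg adjustment at 0.05, 3 genes were called higher in OL (Scn8a, Cacna1b and Cacna1d), against 11.0% of all genes tested. A further 10 were called lower (Cacna1i, Cacnb2, Cacna1a, Cacna2d2, Cacnb1, Cacna1s, Cacna2d1, Cacna1h and Cacna1c among them), against 8.63% of all genes tested. In all 40.6% of the tested channel genes were called in either direction, and 19.6% of the 14543 genes tested (2857).

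The median log2 difference, OL minus OPC, was −0.25 over the 32 tested channel genes and −0.02 over all genes tested. In both lines 19 of the 32 were lower in OL and 7 were higher, and the lines had opposite signs at 6. The shares of all genes tested for these counts of sign are not given here. Both OL libraries lay below both OPC libraries at 17 of the 32 (background 28.1% of all genes) and above both at 4 (background 27.4%). Summed over all 40 genes the covered sequence was 111 and 103 kb in OL, against 128 and 129 kb in OPC. Peaks numbered 379 and 425 in OL and 452 and 454 in OPC.

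Peak number was tested as a second measure at the 35 channel genes with a mean of at least 2 peaks. Of these 3 were called lower in OL, Cacna1i and Cacnb2 among them, and none higher, while 6.19% of the 12465 genes tested this way were called, 4.15% higher and 2.04% lower. All 3 were called by both measures. With the line as a block 9 of the 35 were called, against 18.0% of all genes. Scn8a was then called higher, and Cacna1e, Cacnb2, Cacna2d1, Cacna1c, Cacng8, Cacna1a and Cacna1i were among the 8 called lower. Without the EpiSC5 OL, the 129O1 OPC or the EpiSC5 OPC library 0 genes of any kind were called by limma on peak number, while 7, 10 and 10 channel genes had an unadjusted p below 0.05. Without the 129O1 OL library 1 channel gene was called, and Cacna1i and Cacnb2 were not.

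**Figure D1:**
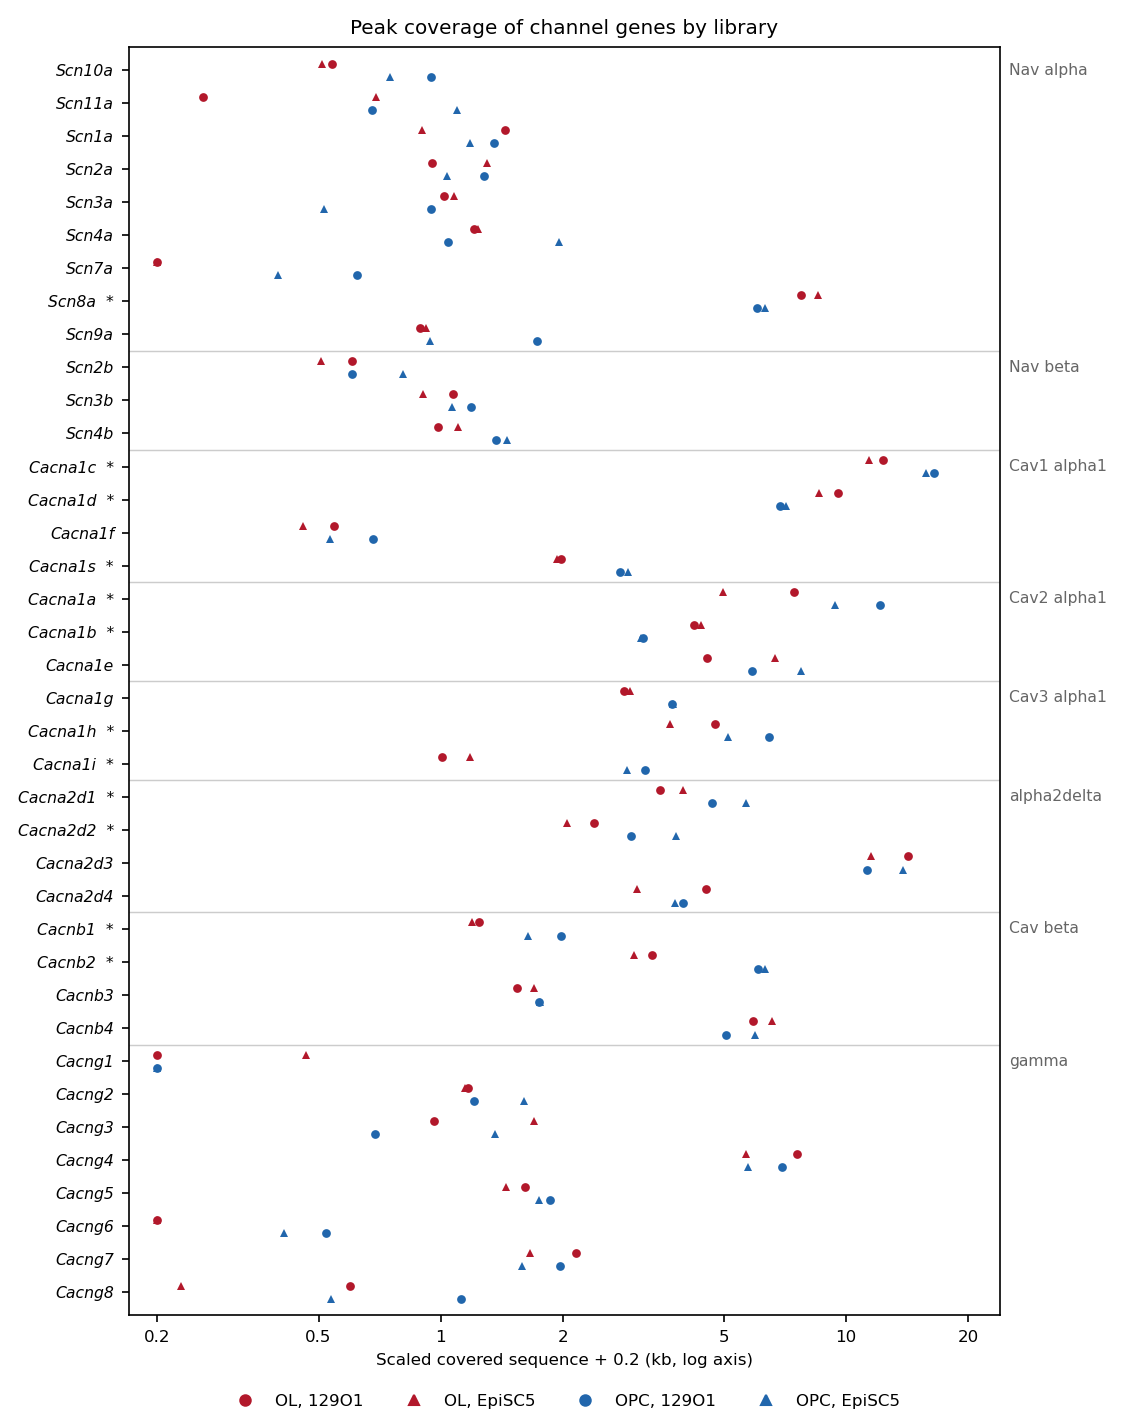
Scaled covered sequence plus 0.2 kb (log axis) of 38 channel genes in the 4 libraries, grouped by subunit class; red is OL and blue is OPC, circles are 129O1 and triangles EpiSC5, and an asterisk marks the 12 genes called. Cacna1i had the widest gap between the OL and OPC points among these 12, with 0.807 and 0.983 kb in OL and 3.0 and 2.69 kb in OPC before 0.2 kb was added.

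Known cell type genes were measured the same way. Of 10 oligodendrocyte genes 8 were called higher in OL and none lower, with summed covered sequence of 31.5 and 34.4 kb in OL and 15.2 and 17.3 kb in OPC. All 7 OPC genes, Pdgfra and Cspg4 among them, had peaks in both cell types, and of these only Sox6 was called, higher in OL. Genes of other cell types were also called lower: 5 of 6 tested vascular and mesenchymal genes in OL (sums of 4.58 and 4.39 kb in OL, 10.7 and 10.6 kb in OPC). So were 4 of 9 tested neuronal genes (28.9 and 28.2 kb in OL, 29.6 and 33.0 kb in OPC) and 2 of 6 astrocyte genes (10.7 and 11.4 kb in OL, 13.0 and 13.4 kb in OPC). Over all genes tested 8.63% were called lower and 11.0% higher. The median log2 was −1.11 over the vascular and mesenchymal list, 0.004 over the neuronal list and −0.26 over the astrocyte list. The neuronal genes tested but not called, Rbfox3, Gad1, Slc17a7, Syt1 and Tubb3, had log2 differences of 0.004 to 0.47. Of the defining markers Cldn5, of endothelium, had no peak in any list. The neuronal gene Stmn2 had none in OL, had 0.301 and 0 kb in OPC, and was not tested. Of the muscle genes Ttn was called higher in OL, with sums over the list of 2.07 and 2.75 kb in OL and 1.51 and 1.99 kb in OPC. The part of these cell types in the channel results was not tested, and in libraries of many cells fewer cells with an open site and fewer open copies per cell cannot be told apart.

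Scn8a, the sodium channel of mature nodes of Ranvier, rose in OL. This gene on chromosome 15 (100869863 to 101045938) had 7.53 and 8.33 kb of covered sequence in 24 and 31 peaks in OL, against 5.84 and 6.10 kb in 17 and 18 peaks in OPC. The groups did not overlap, and the means were 7.93 ± 0.569 kb in OL and 5.97 ± 0.18 kb in OPC (SD, n = 2 each), or 44.0 bp per kb of window in OL, the highest density there among the sodium channel alpha genes, and 33.1 in OPC. The log2 difference was 0.40 (SE 0.13, 1.32-fold, adjusted p = 0.0376 by limma), with 0.36 in 129O1 and 0.44 in EpiSC5. The call was lost with the line as a block (adjusted p = 0.0540), without the 129O1 OL library (0.0722), without the EpiSC5 OL library (0.260) and without the 129O1 OPC library (0.0972). Peak number had an adjusted p of 0.0912 by limma.

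Peaks of the 4 lists were merged into regions. Of 36 regions at Scn8a 9 were OL-only, meaning covered by peaks of both OL lists but of no OPC list, 1 was OPC-only, defined the other way round, and 9 held a peak in all 4 libraries. The OL-only regions covered 2397 bp together, and their median fold enrichment over background, from the authors' caller, was 7.58 and 10.4 in the OL lists. The widest, chr15:100892762-100893265 (504 bp), lay inside the gene 22117 bp from the nearest start in the promoter table; the annotation used here gives gene intervals without exons. Its fold was 14.4 and 14.6 in the OL lists, above 98.0% and 96.7% of the peaks of each list.

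The brain channel genes Scn1a, Scn2a and Scn3a lie on chromosome 2 with Scn7a and Scn9a, and these 5 genes had 0 to 7.41 covered bp per kb in OL and 2.68 to 7.13 in OPC. Scn3a, most active in the embryonic brain, had 0.817 and 0.880 kb in OL and 0.747 and 0.316 kb in OPC (log2 difference 0.58, adjusted p = 0.153 by limma). Scn1a, Scn2a, Scn4a of skeletal muscle and Scn9a of sensory neurons had log2 differences between −0.49 and −0.05 (adjusted p of 0.164 to 0.918 by limma), and none was called. Scn10a and Scn11a, which encode sodium channels of pain-sensing neurons, lie next to each other on chromosome 9 and were too little covered to test. Scn10a had 0.340 and 0.311 kb in OL and 0.746 and 0.549 kb in OPC, and Scn11a had 0.0601 and 0.493 kb in OL and 0.477 and 0.897 kb in OPC. Scn7a, whose product is a sodium sensor rather than a voltage-gated channel, had no peak in OL, against 0.422 and 0.196 kb in 2 peaks and 1 peak in OPC; it was under the minimum for the test.

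No sodium channel beta gene was called. Scn4b, whose product is linked to resurgent sodium current, is given in full as the one with the most bases under peaks; it lies on chromosome 9 (45138624 to 45154155) and had 0.787 and 0.906 kb in OL and 1.17 and 1.26 kb in OPC. The groups did not overlap, but the difference missed the threshold (log2 −0.44, SE 0.18, adjusted p = 0.0967 by limma). Scn3b had an adjusted p of 0.589 by limma. Scn2b, next to Scn4b, had 0.404 and 0.307 kb in OL and 0.405 and 0.605 kb in OPC and was not tested. The 4 beta genes held 1 OL-only and 5 OPC-only regions.

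In the L-type class Cacna1d rose in OL, while Cacna1c and Cacna1s fell. Cacna1c encodes the L-type channel of heart, smooth muscle and brain, and has been studied in OPCs; it lies on chromosome 6 (118587240 to 119197384). It had 12.1 and 11.2 kb in 44 and 47 peaks in OL, against 16.3 and 15.5 kb in 55 and 53 peaks in OPC. The means were 11.7 ± 0.68 kb in OL and 15.9 ± 0.532 kb in OPC (SD, n = 2 each), the groups did not overlap, and the log2 difference was −0.44 (SE 0.11, adjusted p = 0.00790 by limma). Without the EpiSC5 OL library its adjusted p was 0.0599. Of its 86 regions 10 were OL-only and 11 OPC-only, so the 2 cell types each had regions of their own within the gene, and 19 were found in all libraries.

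Among all called channel genes the widest OL-only and OPC-only regions were both in Cacna1c. The OL-only region at chr6:118838706-118839394 was 689 bp wide, with fold enrichment of 8.11 and 9.5 in the OL lists. The OPC-only region at chr6:118977409-118978333 was 925 bp wide, with fold enrichment of 6.82 and 10.5 in the OPC lists. Of the covered sequence at Cacna1c 10.4% lay also within the window of another gene.

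Cacna1d, the L-type channel of endocrine cells, hair cells and pacemaking neurons, lies on chromosome 14 (30039941 to 30491156). It had 9.35 and 8.39 kb in 32 and 32 peaks in OL, against 6.68 and 6.93 kb in 24 and 27 peaks in OPC. Both OL libraries were above both OPC libraries (log2 0.37, SE 0.13, adjusted p = 0.0458 by limma). With the line as a block the adjusted p was 0.0701, and it was 0.272 and 0.0758 without the 129O1 or the EpiSC5 OL library, and 0.116 and 0.0611 without the OPC library of 129O1 or of EpiSC5. Its 55 regions included 7 OL-only and 5 OPC-only.

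Cacna1s, the L-type channel of skeletal muscle that serves as its voltage sensor, lies on chromosome 1 (136052806 to 136119822) and had 1.78 and 1.73 kb in 8 and 10 peaks in OL, against 2.57 and 2.71 kb in 12 and 11 peaks in OPC. The log2 difference was −0.54 (SE 0.15, adjusted p = 0.0181 by limma), and the groups did not overlap. Its adjusted p was 0.0636 and 0.0817 without the 129O1 or the EpiSC5 OL library, and 0.0934 without the EpiSC5 OPC library. It had 3 OL-only and 3 OPC-only regions. Cacna1f, the retinal L-type channel on chromosome X, held a single region, in all 4 lists, which lay wholly within the window of another gene, and it was not tested.

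The Cav2 genes, whose channels drive transmitter release at synapses, also moved in both directions. Cacna1a, the P/Q-type pore, on chromosome 8 (84338631 to 84640251), had 7.22 and 4.77 kb in 29 and 24 peaks in OL, against 11.9 and 9.22 kb in 42 and 30 peaks in OPC. In each line OL was the lower, and the groups did not overlap; the log2 difference was −0.81 (SE 0.17, 1.76-fold lower, adjusted p = 0.00187 by limma), with −0.71 in 129O1 and −0.92 in EpiSC5. Without 1 library in turn the log2 difference was −0.53 to −1.10. The call was lost with 200 bp around each summit (adjusted p = 0.142 by limma), with no scaling (0.0603) and with no filter (0.0508). Peak number had an adjusted p of 0.149 by limma. Of 48 regions 1 was OL-only, 5 were OPC-only and 16 were in all libraries.

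Cacna1b, the N-type pore on chromosome 2 (24603860 to 24763200), had 4.02 and 4.19 kb in 11 and 15 peaks in OL, against 2.96 and 2.92 kb in 6 and 10 peaks in OPC. Both OL values were above both OPC values (log2 0.46, SE 0.15, 1.37-fold, adjusted p = 0.0323 by limma), and 4 regions were OL-only with none OPC-only. The adjusted p was 0.104 and 0.164 without the 129O1 or the EpiSC5 OL library, and 0.0580 and 0.0763 without the OPC library of 129O1 or of EpiSC5. Cacna1e, the R-type pore, had 4.34 and 6.49 kb in OL and 5.66 and 7.56 kb in OPC and was not called (adjusted p = 0.276 by limma). Its values differed more between lines than between cell types.

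All 3 T-type genes, whose channels open near the resting potential, had both OL libraries below both OPC libraries, and 2 were called. Cacna1i, the T-type pore found mainly in brain, on chromosome 15 (80287238 to 80398292), had the larger change: 0.807 and 0.983 kb in 5 and 7 peaks in OL, against 3.0 and 2.69 kb in 15 and 12 peaks in OPC. The means were 0.895 ± 0.125 kb in OL and 2.84 ± 0.219 kb in OPC (SD, n = 2 each), or 7.78 bp per kb in OL and 24.7 in OPC. The log2 difference was −1.48 (SE 0.16, 2.78-fold lower, adjusted p = 8.22e-06 by limma), and that of peak number was −1.18 (adjusted p = 0.0238 by limma). Of its 21 regions 2 were OL-only, 3 were OPC-only, 3 were in all libraries and 13 had another combination.

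Cacna1h, the T-type pore found in sensory neurons and adrenal cells, lies on chromosome 17 (25374285 to 25436334) and had 4.56 and 3.47 kb in 12 and 10 peaks in OL, against 6.25 and 4.92 kb in 14 and 14 peaks in OPC. It was the most densely covered alpha gene, at 60.8 bp per kb in OL and 84.6 in OPC. Its log2 difference of −0.46 (SE 0.16) was at the threshold (adjusted p = 0.0497 by limma), and the adjusted p was 0.426 without the EpiSC5 OL library and 0.297 without the 129O1 OPC library. Cacna1g, the T-type pore of thalamic neurons and heart, had 2.63 and 2.74 kb in OL and 3.52 and 3.55 kb in OPC, with an adjusted p of 0.0864 by limma.

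Of the alpha2delta genes, whose products are the targets of gabapentin-type drugs in the case of Cacna2d1 and Cacna2d2, these 2 fell and the other two were not called. Cacna2d1, on chromosome 5 (15934264 to 16374511), had 3.28 and 3.76 kb in 10 and 13 peaks in OL, against 4.47 and 5.48 kb in 15 and 19 peaks in OPC (log2 −0.47, SE 0.15, adjusted p = 0.0333 by limma). Without the 129O1 OL library the adjusted p was 0.211, and without the EpiSC5 OPC library it was 0.236. It held 1 OL-only region, chr5:16030123-16030570 (448 bp), with fold enrichment of 14.1 and 16.5 in the OL lists, and 4 OPC-only regions.

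Cacna2d2, on chromosome 9 (107399733 to 107529346), had 2.19 and 1.85 kb in 6 and 10 peaks in OL, against 2.74 and 3.61 kb in 9 and 13 peaks in OPC (log2 −0.60, SE 0.17, adjusted p = 0.0157 by limma). The groups did not overlap for either gene. For Cacna2d2 the adjusted p was 0.0525 with the line as a block, 0.124 without the EpiSC5 OL library and 0.183 without the EpiSC5 OPC library. Cacna2d3, the longest channel gene, had 14.0 and 11.3 kb in OL and 11.1 and 13.6 kb in OPC, so that the groups overlapped (adjusted p = 0.899 by limma). It still held 14 OL-only and 12 OPC-only regions. Cacna2d4 lies beside Cacna1c, and 51.7% of its covered sequence was in the window of another gene; it was not called (adjusted p = 0.875).

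Cacnb2 and Cacnb1, 2 of the 4 cytoplasmic beta genes, fell in OL. Cacnb2, the main beta subunit of heart, lies on chromosome 2 (14603861 to 14988811) and had 3.13 and 2.80 kb in 14 and 15 peaks in OL, against 5.85 and 6.10 kb in 25 and 26 peaks in OPC. The means were 2.96 ± 0.235 kb in OL and 5.97 ± 0.175 kb in OPC (SD, n = 2 each). The libraries of each cell type lay close together and the groups far apart (log2 −0.97, SE 0.14, 1.95-fold lower, adjusted p = 0.000142 by limma; peak number log2 −0.90, adjusted p = 0.0249). Of its 40 regions 3 were OL-only, 4 OPC-only and 7 in all libraries.

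Cacnb1, the beta subunit of skeletal muscle, on chromosome 11 (98001508 to 98023034), had 1.04 and 0.993 kb in 4 and 5 peaks in OL, against 1.78 and 1.44 kb in 6 and 7 peaks in OPC. The log2 difference was −0.56 (SE 0.17, adjusted p = 0.0225 by limma), and the adjusted p was 0.0735 without the EpiSC5 OL library and 0.293 without the 129O1 OPC library. Of its covered sequence 71.1% was in windows of neighbouring genes, and what lay outside those windows was under the minimum for the test. Cacnb4, the beta subunit mutated in lethargic mice, had 5.70 and 6.35 kb in OL and 4.86 and 5.77 kb in OPC (adjusted p = 0.447 by limma), and Cacnb3 had an adjusted p of 0.701.

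None of the 5 tested gamma genes was called, with adjusted p of 0.347 to 0.879 by limma. Cacng4, an AMPA receptor auxiliary subunit that OPCs are known to express, on chromosome 11 (107732357 to 107794706), had 7.37 and 5.45 kb in 21 and 17 peaks in OL, against 6.75 and 5.53 kb in 21 and 17 peaks in OPC. The groups overlapped, and the lines had the same order in both cell types. Per length it was the most covered channel gene, at 96.6 bp per kb in OL and 92.5 in OPC, and 10 of its 28 regions were in all libraries. Its neighbour Cacng1, of the muscle calcium channel, had 1 peak in the EpiSC5 OL list and none elsewhere. Cacng6 had no peak in OL, against 0.323 and 0.210 kb in OPC, and Cacng8 had 0.398 and 0.0289 kb in OL and 0.924 and 0.337 kb in OPC. Of the covered sequence at Cacng7 87.8% was in windows of other genes.

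**Figure D2:**
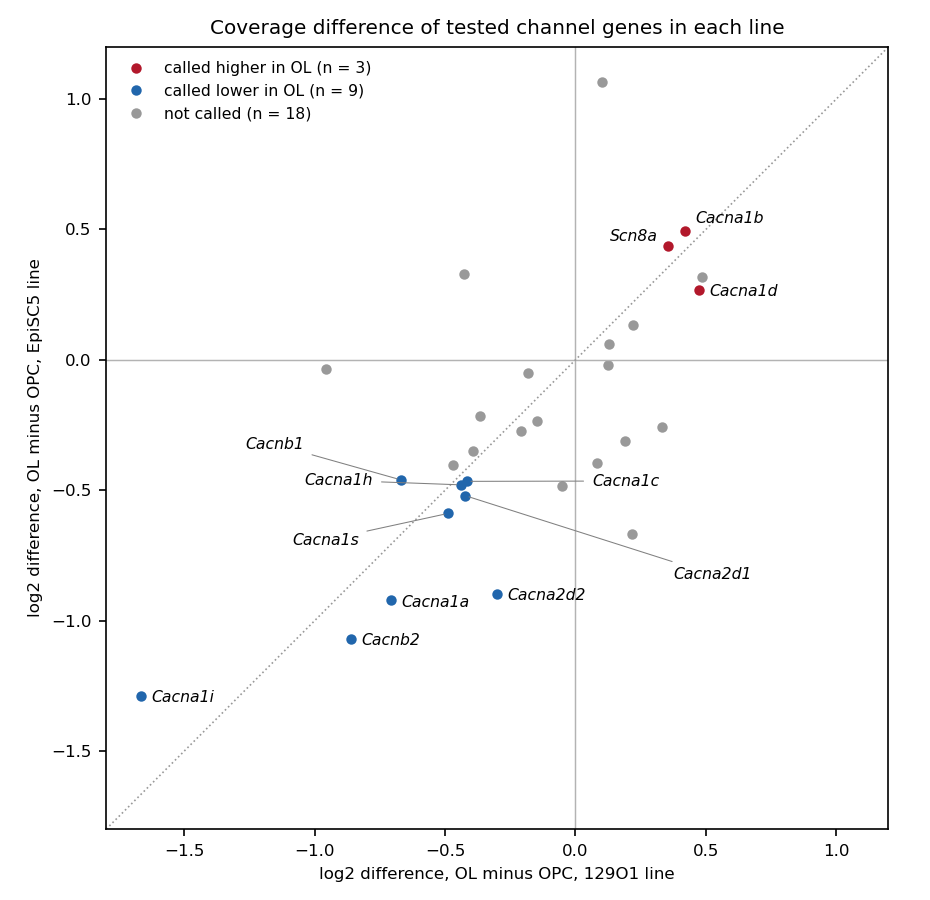
Log2 difference in covered sequence, OL minus OPC, in 129O1 (x axis) and EpiSC5 (y axis) for 30 of the tested channel genes; the dotted line marks equal differences, and colours mark the 3 genes called higher, the 9 called lower and the 18 not called. All 12 called genes drawn had the same sign in both lines, with Cacna1i at −1.67 and −1.29. The calls were made on the same libraries, so this is not a separate test of agreement between lines.

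Merging the peaks of the 4 lists gave 742 regions in the windows of the channel genes. Of these 84 were OL-only (11.3%), 100 OPC-only (13.5%) and 176 shared by all libraries (23.7%). In the windows of all protein-coding genes, 141580 regions, the shares were 16.8% OL-only, 8.84% OPC-only and 26.8% shared. Without 1 list the definition asks less of the remaining one: without the 129O1 OL list 161 regions were OL-only, and without the 129O1 or the EpiSC5 OPC list 189 or 197 were OPC-only. OPC-only regions outnumbered OL-only regions at 23 genes, OL-only outnumbered OPC-only at 9, and the numbers were equal at 8. The same count over all genes is not given here. Several of these genes rest on a single region, such as Scn7a (0 OL-only, 1 OPC-only) and Cacng3 (1 OL-only, 0 OPC-only).

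Regions of 1 cell type seldom lay at starts. Among genes with a start in the promoter table, 2 of 74 OL-only regions (2.70%) and 5 of 76 OPC-only regions (6.58%) came within 1 kb of a start, against 27 of 129 shared regions (20.9%). Regions of other combinations did so at 11 of 314 (3.50%), so the low share was not particular to regions of 1 cell type. The median distance to the nearest start was 87.3 kb for OL-only regions, 73.2 kb for OPC-only regions and 34.2 kb for shared ones. Median widths were 259.5, 278 and 440 bp in the same order, and 82 of 84 OL-only and 96 of 100 OPC-only regions lay inside the gene rather than in its flanks.

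**Figure D3:**
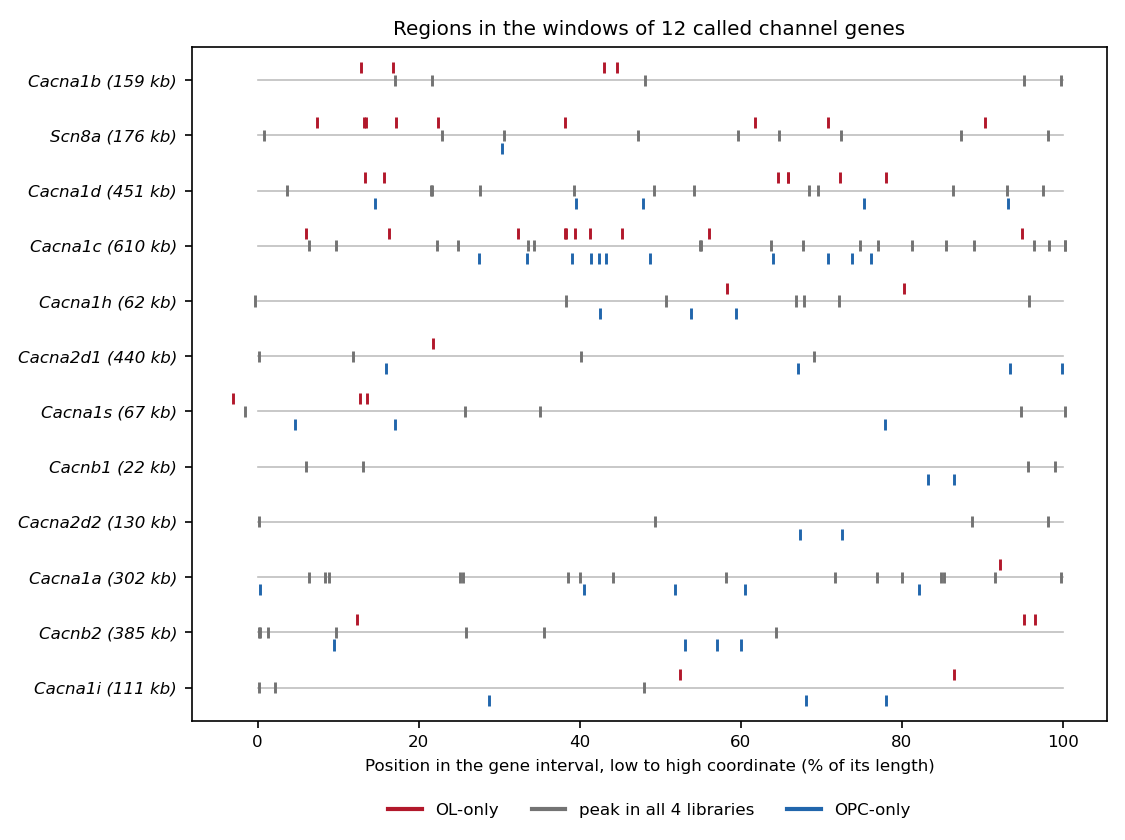
Positions of OL-only (red, above), shared (grey) and OPC-only (blue, below) regions along 12 called channel genes, as percent of each gene's length from its low to its high coordinate, with the length in kb beside the name. Scn8a held 9 OL-only regions and 1 OPC-only region, and Cacna1c held 10 and 11. The OPC-only regions of Cacna1c lay between 27.4% and 76.2% of its length.

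The covered sequence of the called genes was then divided at 1 kb from a start. In all 10 called genes with a start in the table the difference in kb was larger away from starts than near them. Most of each gene lies away from its starts, so this comparison cannot show whether sequence near starts changed less in proportion. At Scn8a 1.46 kb in OL and 1.13 kb in OPC lay near a start, while 6.47 kb in OL and 4.84 kb in OPC lay elsewhere (means of 2 libraries). At Cacna1c 1.27 kb in OL and 1.82 kb in OPC lay near starts, and 10.4 kb in OL and 14.1 kb in OPC elsewhere. Cacnb2 had 0.841 kb in OL and 1.61 kb in OPC near starts, and 2.12 kb in OL and 4.37 kb in OPC elsewhere. At Cacna1b the sequence near the start was alike, 1.31 kb in OL and 1.29 kb in OPC, and the rest was 2.80 kb in OL and 1.64 kb in OPC.

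Promoters were read as 300 bp windows, 250 bp before to 50 bp after each start, from the RefSeq table of GRCm38.p6, the assembly also called mm10. The table held 41 windows for 30 of the channel genes; the other 10, Scn3a, Scn3b, Cacna1a, Cacna1g, Cacna1h, Cacna2d4, Cacng1 and Cacng4 among them, were not in it. Of the 41 windows 18 (43.9%) held a peak in all 4 libraries, 17 (41.5%) in none, 2 (4.88%) in both OPC libraries and neither OL library, and 4 (9.76%) in some other combination. No window held a peak in both OL libraries alone. Among the 21263 windows of all protein-coding genes the shares were 53.5% in all 4, 38.2% in none, 2.08% OPC-only, 5.76% mixed and 0.423% OL-only.

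Channel promoters with a peak in all libraries were rich in G and C. Their median G and C content was 71.8% with 34.5 CpG dinucleotides, against 52.7% and 5 in the windows without a peak. Over all genes the medians were 62.7% and 23 with a peak in all libraries, and 47.3% and 3 without. Of the genes, 16 had at least 1 start with a peak in all libraries, and 11 genes had no window with a peak in any.

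The OPC-only windows belonged to Scn7a and Scn2b. The Scn7a window was covered over 266 and 218 bp in OPC, with fold enrichment of 12.8 and 7.78, and had no covered base in OL. The Scn2b window was covered over 78 and 108 bp in OPC, with fold enrichment of 5.08 and 4.13, and again none in OL. Of the 2 windows of Scn8a, a gene called higher, the first was covered alike, over 210 and 236 bp in OL and 215 and 228 bp in OPC, and the second held no peak in any list. Within 1 kb of the Scn8a starts the covered sequence was 1.57 and 1.35 kb in OL and 1.20 and 1.06 kb in OPC. At Cacna1i, the gene with the largest change among called genes in the promoter table, 96 and 61 bp were covered in OL and 164 and 107 bp in OPC.

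These 4 windows are printed 5′ to 3′ on the strand of the gene, with sequence and coordinates from RefSeq for GRCm38.p6, because they show the 3 kinds of start: covered in OPC alone, narrower in OL, and alike in both over the window itself at a gene called higher. Capitals mark bases under a peak in both OPC lists and in neither OL list. Scn7a (chr2:66784861-66785160, minus strand) has 218 such bases, Scn2b (chr9:45117626-45117925, plus strand) has 55, Cacna1i (chr15:80286988-80287287, plus strand) has 11 and the first window of Scn8a (chr15:100870395-100870694, plus strand) has 0.
Scn7a: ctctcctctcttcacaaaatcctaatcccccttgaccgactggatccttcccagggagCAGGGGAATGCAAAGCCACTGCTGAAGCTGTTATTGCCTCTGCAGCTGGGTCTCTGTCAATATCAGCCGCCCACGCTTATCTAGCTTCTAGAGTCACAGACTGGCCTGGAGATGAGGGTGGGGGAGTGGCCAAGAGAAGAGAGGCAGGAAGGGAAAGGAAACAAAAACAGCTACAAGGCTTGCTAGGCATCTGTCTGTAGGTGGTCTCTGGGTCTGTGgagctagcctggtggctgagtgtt
Scn2b: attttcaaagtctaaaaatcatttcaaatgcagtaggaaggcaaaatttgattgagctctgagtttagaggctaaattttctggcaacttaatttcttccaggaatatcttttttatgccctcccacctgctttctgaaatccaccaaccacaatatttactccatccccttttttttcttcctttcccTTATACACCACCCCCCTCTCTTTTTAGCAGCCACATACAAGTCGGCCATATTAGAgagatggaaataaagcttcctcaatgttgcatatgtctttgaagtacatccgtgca
Cacna1i: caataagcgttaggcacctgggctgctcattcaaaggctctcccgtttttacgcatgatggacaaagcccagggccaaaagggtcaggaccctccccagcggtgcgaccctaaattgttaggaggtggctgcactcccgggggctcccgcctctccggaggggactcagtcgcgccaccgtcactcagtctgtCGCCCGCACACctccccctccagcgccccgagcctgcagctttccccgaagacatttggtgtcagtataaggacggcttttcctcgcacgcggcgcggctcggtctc
Scn8a: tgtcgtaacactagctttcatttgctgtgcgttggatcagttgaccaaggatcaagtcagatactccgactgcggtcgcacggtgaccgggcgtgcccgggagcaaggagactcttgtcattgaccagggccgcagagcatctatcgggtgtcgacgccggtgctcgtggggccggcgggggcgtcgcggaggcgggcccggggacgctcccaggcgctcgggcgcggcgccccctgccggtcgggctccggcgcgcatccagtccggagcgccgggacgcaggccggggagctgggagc

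In Scn7a the capitals run across most of the window, up to the last stretch before its end. The Scn2b capitals end near the start, in a window with 38.3% G and C, while the first Scn8a window has 70.0% G and C and no capitals. The motif searches used both strands and exact letters, and no motif contains another. The GC box GGGCGG was found in 16 of the 41 windows (39.0%; 46.2% of all windows), Scn7a among them, and the TATA box TATAAA in 2 (4.88%; 12.6% of all), of Cacna1d and Scn2a. ACAAAG, a core of SOX factor sites, was in 10 windows (24.4%; 16.8% of all), the printed window of Cacna1i and the second of Scn8a, which is not printed, among them. TTCAGCACC, the left part of the site of the neuronal repressor REST, was in none (0.414% of all).

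**Figure D4:**
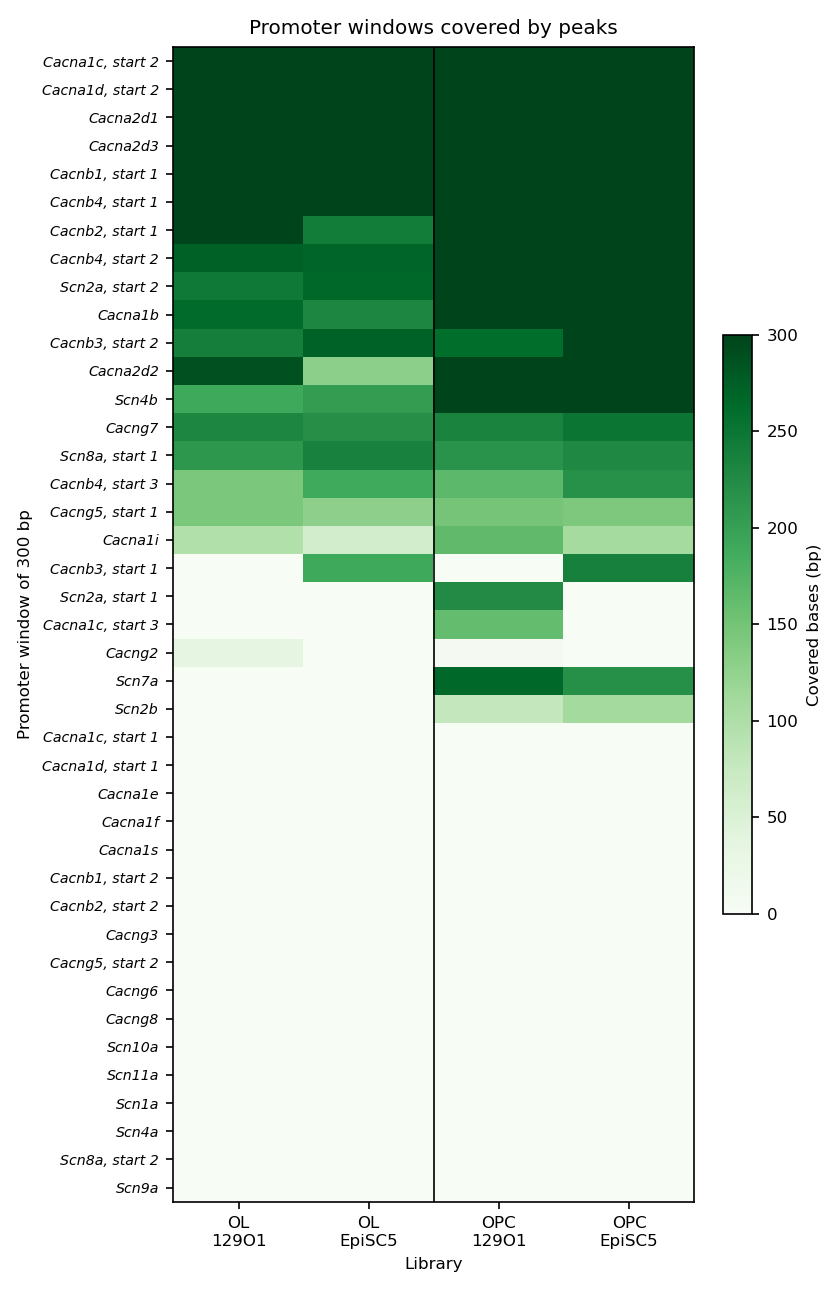
Bases under a peak (colour, 0 to 300 bp) in each of the 41 promoter windows of the channel genes, by library, with OL on the left and OPC on the right. Most windows were covered in all 4 libraries or in none; Scn7a and Scn2b were covered in OPC alone.

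Genes that work with these channels were compared in the same fit. Of 16 genes for sodium channel partners and clustering 3 were called higher in OL and 1 lower (median log2 −0.02, as over all genes). The shares of all genes tested were 11.0% higher and 8.63% lower. Tnr, which encodes tenascin-R, an oligodendrocyte matrix protein that binds sodium channel beta subunits, had 21.2 and 22.2 kb in OL and 11.5 and 10.5 kb in OPC (log2 0.97, adjusted p = 8.22e-06 by limma). Ank2, which encodes an ankyrin that anchors channels to the membrane skeleton, had 12.8 and 11.4 kb in OL and 19.1 and 17.1 kb in OPC (log2 −0.57, adjusted p = 0.00131 by limma). Cntn1 and Unc79 were the others called higher.

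Of 17 calcium channel partners and regulators 15 were tested, 5 were called lower and none higher (median log2 −0.28). Over all genes tested 8.63% were called lower and 11.0% higher. Akap6, an anchoring protein for protein kinase A in muscle and neurons, had 8.34 and 8.16 kb in OL and 12.5 and 11.4 kb in OPC (log2 −0.53, adjusted p = 0.00410 by limma). Rimbp2, which links calcium channels to the release machinery of synapses, had 0.563 and 1.41 kb in OL and 1.94 and 7.16 kb in OPC (log2 −1.84, adjusted p = 0.00172 by limma), with the lines far apart within each cell type. Stac, Stac3 and Rem2 were the others called lower.

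Of 15 genes for calcium signalling after entry 3 were called higher and 2 lower (median log2 0.02), where all genes had 11.0% higher and 8.63% lower. Of the 4 calcineurin genes listed Ppp3ca, Ppp3cc and Ppp3r1 were called higher and Ppp3cb was not called (log2 0.049, adjusted p = 0.898 by limma). Of the 5 calmodulin kinase genes Camk2b and Camk4 were called lower, and Camk2a, Camk2d and Camk2g were not called (log2 −0.40, −0.27 and −0.042). Camk2b had 2.34 and 2.47 kb in OL and 4.93 and 4.37 kb in OPC (log2 −0.90, adjusted p = 0.000385 by limma). Of 17 genes for calcium stores and store-operated entry 2 were called higher and 3 lower (median log2 −0.05). Within the inositol trisphosphate receptors Itpr2 rose, with 15.8 and 15.2 kb in OL and 8.85 and 10.0 kb in OPC (log2 0.71, adjusted p = 0.000342 by limma). Itpr3 fell, with 1.63 and 0.963 kb in OL and 3.09 and 2.62 kb in OPC (log2 −1.06, adjusted p = 0.000718 by limma). Itpr1 was not called (log2 −0.23, adjusted p = 0.275 by limma).

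Ryr1, the release channel coupled to Cacna1s in skeletal muscle, had 1.43 and 1.64 kb in OL and 3.87 and 3.10 kb in OPC (log2 −1.08, adjusted p = 0.000164 by limma). Ryr2 and Ryr3 were not called (log2 0.15 and −0.20). The calcium pump gene Atp2b4 had 1.41 and 1.22 kb in OL and 3.09 and 3.22 kb in OPC (log2 −1.15, adjusted p = 6.83e-05 by limma). The other calcium pump genes listed, Atp2a2, Atp2b1 and Atp2b2, were not called (log2 0.39, 0.002 and −0.40). Of the 19 genes called in these 4 lists, 9 kept the call without each library in turn and with the line as a block: Tnr, Ank2, Akap6, Rimbp2, Camk2b, Itpr2, Itpr3, Ryr1 and Atp2b4.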

How the data were processed

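Omni-ATAC-seq peak lists of 2 OL and 2 OPC libraries were used; per the labels, reads were single-end and 50 bp, and 100 M reads were planned for each. Trim Galore 0.3.1, Bowtie2 2.3.2, Picard, MACS2 and the build mm10 are named, per the submitters' processing notes; the version of the caller, its settings and any duplicate filter or Tn5 shift: not given in the sources used here. Each library was called alone by the authors. The deposited lists give each peak a score, a linear ratio or fold over background, and its significance as −log10 p and −log10 q; the lowest −log10 q was 3.0 to 3.03. These are the authors' values and were used only to describe or filter peaks. Wider peaks (median 190 and 192 bp in OL, 201 and 237 bp in OPC) add to covered sequence, and scaling to the list total multiplied it by 1.13 and 0.965 in OL and 1.03 and 0.901 in OPC.

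Covered bp per gene window (gene and 2 kb each side) were scaled to the mean list total and tested as log2(bp + 200) for genes with a mean of at least 500 bp; peak numbers as log2(number + 1) at a mean of at least 2. limma 3.58.1 in R 4.3.3 (trend, two-sided, Benjamini-Hochberg over all tested genes, 0.05) compared OL with OPC. Fold changes on this scale understate changes of low genes. The fits were tested on simulated data. Values printed as ± are SDs of 2 libraries. A region belonged to a cell type with an overlap of at least 1 bp.

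Replicate numbers stand for the cell lines, so they pair the libraries. Across 14543 genes the difference between lines in OL correlated with that in OPC at 0.287. The channel genes and the partner and marker lists were chosen with earlier results of these data known. By rule, values per library are given for every channel gene called, and for the most covered gene of a class with none; sequences for called genes with a covered promoter, largest difference first, of which Cacna1i is shown; and up to 3 of the widest regions each way. The counts cover all 40 channel genes, of which 2 are not reported here one by one. Scn7a, Scn2b and Scn8a sequences, other channel genes given by library and the partner genes described were chosen after their values were seen. Alternatives in scaling, filters, pseudocounts, window, peak threshold, block and left-out libraries are given in the closing section.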

Additional observations from a re-analysis of the deposited data

Results flagged for a closer look

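At 6 channel genes coverage in OL relative to OPC had opposite signs in 129O1 and EpiSC5; none of the 6 was called, and the difference between the lines was not tested, since each line has 1 library per cell type. The share of all genes tested with opposite signs is not given here. The values below are log2 differences, OL minus OPC, in 129O1 and in EpiSC5, followed by the first minus the second. Scn4a had 0.22 and −0.67, a gap of 0.89. Scn2a had −0.43 and 0.33, a gap of −0.75. Cacna2d3 had 0.33 and −0.26, a gap of 0.59, and Cacna2d4 had 0.19 and −0.31, a gap of 0.50. Scn1a had 0.08 and −0.40, a gap of 0.48. Cacng4 had 0.12 and −0.02, a gap of 0.14.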

How the results depend on the processing

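Of 17 alternatives for coverage, Cacna1i and Cacnb2 were called under every one, and no called channel gene changed direction under any (135 of 220 single coverage values kept the call, 85 lost it). The counts of called channel genes moved more, from 13 (3 higher, 10 lower). With 200 bp around each summit 3 were called (0 higher, 3 lower), with the best 50% of each list by q value 4 (0 higher, 4 lower), with median-of-ratios scaling 6 (0 higher, 6 lower), and with no scaling 4 (0 higher, 4 lower). Calls over all genes fell as well, from 2857 to 742, 1632, 1925 and 583 in the same order. Without scaling the median of all genes was −0.13, and 33.8% of all called genes were higher, against 56.1%. With no filter 8 channel genes were called (1 higher), and with 20 kb on each side 1 was higher. Over all genes 2168 were called with no filter and 3024 with 20 kb on each side. With the replicate block (cell line) 11 were called (1 higher, 10 lower), against 20.0% of all genes. Leaving out 1 library in turn gave 7 to 11 calls, 0 to 2 of them higher and 7 to 10 lower, the fewest without the EpiSC5 OL library. The cause was not tested; with 3 libraries the fit has fewer samples.

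Peak number gave 3 lower calls. With the block it gave 9 (1 higher, 8 lower), with no filter 0 (0 lower; no gene of any kind was called by limma, while 14 channel genes had an unadjusted p below 0.05), and without 1 library 0 to 1 (0 to 1 lower). With the best 50% of each list 46 regions were OPC-only in place of 100. Leaving out 1 list gave 95 to 161 OL-only and 113 to 197 OPC-only regions. Among partner genes 229 of 313 values kept the call and 83 lost it; Stim1, called higher (log2 0.51), reversed with 200 bp around each summit (log2 −0.081, adjusted p = 0.891 by limma). Depth is unknown, so how far it limits these calls could not be measured.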
